A study of Mus musculus with 9 samples.

Results

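CTCF and cohesin peaks were described around the 5 Ikaros family genes of the mouse, Ikzf1 to Ikzf5, which are 5 of 22367 protein-coding genes in the annotation. The members were chosen by name, not by their peaks, and a window was drawn over each gene body and 100 kb either side of it on the mm9 build. Every peak that touched a window by at least 1 bp was counted, which gave 50 of 42250 CTCF peaks in pre-B cells, 76 of 71080 CTCF peaks in pro-B cells grown with IL7 (IL7 pro-B cells), 39 of 30488 Rad21 peaks in pre-B cells, 16 of 9701 Rad21 peaks in DN thymocytes and 84 of 36743 Rad21 peaks in DP thymocytes. Rad21 is a subunit of cohesin, the ring-shaped complex that holds loops of chromatin together, and CTCF is the zinc-finger protein at which such loops often end.

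The libraries came from the bone marrow or thymus of C57BL/6 mice that lack RAG1, or RAG as the pre-B label has it, so that none of the cells could rearrange their own antigen receptor genes. The pre-B cells carried a rearranged μ heavy chain transgene, and the pro-B cells had been cultured for 7 days with IL7, a cytokine on which early B-lineage cells grow. The CD4-CD8- (DN) thymocytes carried no transgene, whereas the CD4+CD8+ (DP) thymocytes carried a rearranged TCRβ transgene that moves them past the DN stage. Bone marrow donors were 6 to 14 weeks old and of both sexes, and thymocyte donors were 4 to 8 weeks old. There was 1 library per condition, so no value below has a replicate and no test between conditions was made. Both pre-B libraries were set against the same input, and CTCF in thymocytes was not analysed here. Peak lists carry no expression, so the identity of the cells rests on their labels.

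Ikaros family proteins are zinc-finger transcription factors that bind DNA through N-terminal fingers and pair with one another through C-terminal fingers. Ikaros (Ikzf1) is needed for lymphocyte development in both lineages, Aiolos (Ikzf3) is known for its role at the pre-B stage and later in B cells, and Helios (Ikzf2) and Eos (Ikzf4) are best known in T cells, including regulatory T cells. Pegasus (Ikzf5) is the most divergent member. The proteins act largely by bringing chromatin remodelling and deacetylase complexes to the genes they bind.

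Each peak comes with a score that the peak caller MACS derived from its p-value against input DNA. The score grows with sequencing depth, so the height of a peak is given here as the percent of peaks in the same library with a lower score. The lists end at different levels, from a lowest score of 50 in the IL7 pro-B list of CTCF to 86.45 in the DN list of Rad21, and the number of reads behind each is unknown. A site with no peak in a list went uncalled there and may still be bound. Peaks of all 5 lists that overlapped were merged into 119 sites, 32 at Ikzf1, 11 at Ikzf2, 41 at Ikzf3, 26 at Ikzf4 and 9 at Ikzf5. Of these, 13 were called in all 5 libraries and 63 in 1 library, and 36 touched a member's gene body.

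The stretches below show what the sites look like in sequence. Each is 30 bases of mm9, written 5′ to 3′ on the strand named, with the closest match to the HOMER de novo CTCF consensus of 12 bases in capitals. The first 6 lie at sites called in all 5 libraries at Ikzf1 and Ikzf2. The next pair are an intronic site of Ikzf3 shared by pre-B and DP cells and a site in an exon of Gsdma3, upstream of Ikzf3. The last pair are DP sites of the Ikzf1 gene body, shown for contrast, and the last of all has an equally close match on the other strand. The sites were picked as examples, and some shared sites, such as that at the start of 1810046J19Rik near Ikzf3, have a best match at 3 mismatches.
Ikzf1 intron 3, chr11:11642924-11642953, plus strand, 2 mismatches: gccaatatcGCCACCTTGTGGtcatgcttg
Fignl1 exon, downstream of Ikzf1, chr11:11688588-11688617, plus strand, 0 mismatches: gaggcgctcGCCCCCTAGTGGcaacagaag
beyond the Fignl1 start, chr11:11712139-11712168, minus strand, 2 mismatches: gagcacagtGACCTCTGGTGGcagtgatgc
Ddc intron, chr11:11720399-11720428, minus strand, 1 mismatch: atctttggtGCCCTCTGGTGGgaagacttg
upstream of Ikzf2, chr1:69735779-69735808, plus strand, 1 mismatch: cacaccctcTCCCCCTAGTGGttaaacctt
far upstream of Ikzf2, chr1:69831878-69831907, minus strand, 2 mismatches: atcattagcGCCGCCTTGTGGccatatata
Ikzf3 intron 1, chr11:98401820-98401849, plus strand, 2 mismatches: ggctctcatGCCCTCTACTGGcctccacag
Gsdma3 exon, chr11:98496918-98496947, plus strand, 1 mismatch: gcctatggcGCCCCCTGCTGGataacagct
Ikzf1 promoter at 5.34 kb, chr11:11590195-11590224, plus strand, 3 mismatches: cctttctctGAACCCCAGTGGtgtgtgaag
Ikzf1 intron 3 at 54.2 kb, chr11:11638873-11638902, plus strand, 4 mismatches: tattagctgGCCACGTGTTTGtcattcggg

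Ikzf1 lies on the plus strand at chr11:11585006-11672929, a gene body of 87.9 kb with 8 annotated transcript starts, and 3 other protein-coding genes lie in its window. Its gene body held more Rad21 peaks in DP cells than that of any other member. There were 18, against 2 in pre-B cells and 1 in DN cells, and CTCF had 3 peaks there in pre-B cells and 6 in IL7 pro-B cells. With the Rad21 lists limited to equal length, the gene body held 5 peaks in DP, 1 in pre-B and 1 in DN cells. With the CTCF lists limited in the same way, it held 3 in pre-B and 2 in IL7 pro-B cells, so that the order of the CTCF counts turned. Of all protein-coding genes, 37 had as many DP Rad21 peaks in the gene body as Ikzf1 or more, and the median gene had 0. The DP peaks were not spread evenly, with a median gap of 1.4 kb between neighbouring Rad21 sites and a longest gap of 20.1 kb, which ran from the intron 3 site to the 3′ part of the gene.

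**Figure D1:**
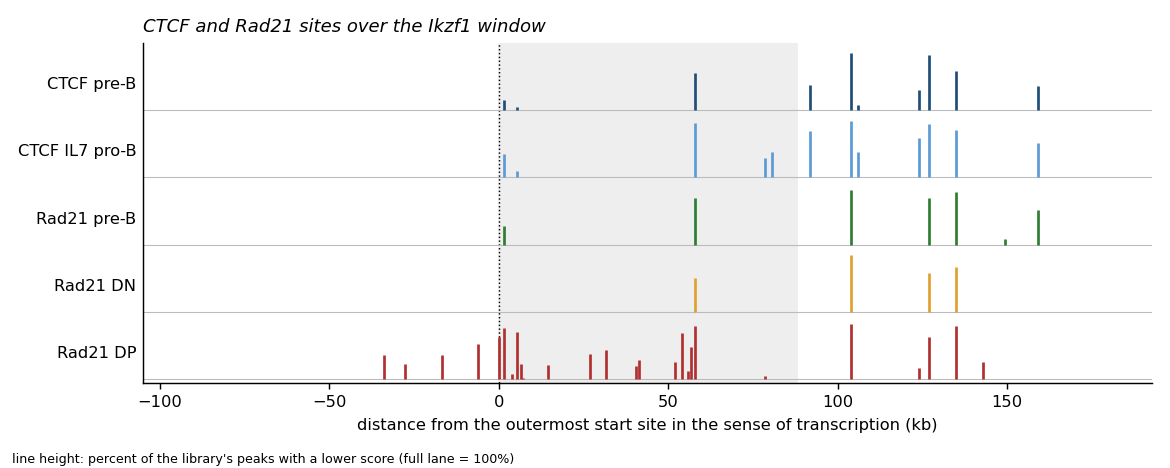
CTCF and Rad21 sites over the Ikzf1 window, by distance in kb from the outermost start of the gene (dotted line; the gene body is shaded), 1 lane per library; the height of a line is the percent of that library's peaks with a lower score. The 4 sites with a line in every lane lie at 57.9, 104, 127 and 135 kb, and the Rad21 DP lane holds 18 of its 27 peaks in the gene body.

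At the Ikzf1 promoters, meaning within 1 kb of any annotated start, 4 sites were found, and a Rad21 peak was called at each of them in DP cells. The first, at the outermost start (chr11:11584406-11585680), was called in DP cells alone and lay above 73.7% of the DP list. The next, centred 1.54 kb into the gene at chr11:11585746-11587347, was the one promoter site with Rad21 in pre-B cells. There, 33.4% of the pre-B Rad21 list and 89.4% of the DP Rad21 list scored lower, and the CTCF peaks lay above 17.0% of the pre-B list and 40% of the IL7 list. The third, at 5.34 kb (chr11:11589742-11590960), stood above 83.0% of the DP Rad21 list, and its CTCF peaks were weak, above 4.68% of the pre-B list and 11.1% of the IL7 list. The last, at 14.5 kb, was called in DP cells alone, above 25.3% of the list. DN cells had no peak at any Ikzf1 promoter, and CTCF at these promoters was low or absent in both B-lineage lists.

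Behind the promoters, the Ikzf1 gene body held a run of DP Rad21 sites up to a site common to every library, and a further DP site at 78.6 kb. That common site lies in intron 3 at chr11:11642356-11643371, 57.9 kb from the outermost start. Its MACS scores were 522.09 for CTCF and 540.27 for Rad21 in pre-B cells, 2080.52 for CTCF in IL7 pro-B cells, 174.97 for Rad21 in DN and 906.95 for Rad21 in DP cells. In percent of the list that scored lower, these were 64.7, 81.3, 95.7, 59.6 and 92.7, in that order. It was the one site in the gene body with Rad21 in DN cells, and the one outside the promoters with Rad21 in pre-B cells. The other 13 DP Rad21 peaks of the gene body outside the promoters were called in neither pre-B nor DN cells. The highest of them lay in intron 3 at 54.2 kb, above 80.7% of the DP list. The sites that followed, at 55.8 and 56.8 kb, lay above 14.0% and 56.6%. The lowest of the 13, at 22.9 kb, lay above 0.585%. One of these sites, in intron 7 at 78.6 kb, also had a CTCF peak in IL7 pro-B cells, above 33.4% of that list, and another IL7 CTCF peak at 80.6 kb, above 45.1%, had no Rad21.

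Downstream of Ikzf1 lay 9 sites, of which 3 had Rad21 in all 3 cell types, 2 in DP cells alone, 2 in pre-B cells alone, and 2 had none. The strongest site of the whole window in every library lay 104 kb from the Ikzf1 start in an exon of Fignl1, the next gene (chr11:11688196-11689425). It stood above 98.8% of the pre-B CTCF list, 99.3% of the IL7 CTCF list, and 94.9%, 99.1% and 96.6% of the Rad21 lists of pre-B, DN and DP cells. Its sequence held an exact match to the CTCF consensus. Sites at 127 kb, beyond the Fignl1 start, and at 135 kb, in an intron of Ddc, were also called in all 5 libraries. In DP cells they lay above 73.8% and 94.1% of the list. The DP-only pair lay at the Fignl1 start, above 20.2% of the DP list, and in Ddc, above 31.2%. Upstream of the gene the window held 4 sites, all with Rad21 in DP cells and not in pre-B or DN cells. The pair of Rad21 sites called in pre-B cells alone lay farthest downstream, in introns of Ddc at 149.5 and 159 kb from the Ikzf1 start.

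The strand of the best consensus match was read within the CTCF peaks of pre-B cells, a match on the plus strand being taken to point to lower coordinates. At Ikzf1, the intron 3 site and the Fignl1 site both pointed towards the Ikzf1 promoters, and the sites at 127 and 135 kb both pointed away from the gene. In all, 3 of 6 matches at Ikzf1 were on the plus strand, as were 1 of 2 at Ikzf2, 8 of 10 at Ikzf3, 5 of 6 at Ikzf4 and 0 of 1 at Ikzf5.

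Ikzf2 lies on the minus strand at chr1:69577788-69732534. With 155 kb it is the longest member, it has 1 annotated start, and no other protein-coding gene lies in its window. What counts as promoter, gene body and upstream here rests on that 1 start. Its gene body was almost empty. No CTCF peak was called in it in either B-lineage list, no Rad21 peak in pre-B or DN cells, and 2 in DP cells, both in intron 3 and above 33.6% and 33.1% of the DP list. Its promoter had a Rad21 peak in DP cells alone, centred 1.11 kb upstream and above 63.7% of the list. With the Rad21 lists limited to equal length, the gene body held no Rad21 peak, the promoter peak was no longer listed, and the order of the cell types turned, with 4 peaks in the window in DN, 2 in DP and 0 in pre-B cells, against 4, 10 and 3 in the lists as deposited.

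Just upstream of the Ikzf2 promoter lay the strongest site of the window in all 5 libraries, centred 3.27 kb before the start at chr1:69735421-69736186. CTCF there stood above 82.3% of the pre-B list and 93.7% of the IL7 list. Rad21 stood above 64.0% of the list in pre-B, 79.9% in DN and 93.0% in DP cells. The consensus match, 1 mismatch from the consensus, was on the plus strand and so pointed into the gene. A further site called in all 5 libraries, 99.4 kb upstream, had its match on the minus strand and pointed away, and stood lower, between 27.8% in DN and 70.7% in the IL7 list. A site at 89.9 kb upstream had Rad21 in all 3 cell types and CTCF in the IL7 list but not the pre-B list, and its Rad21 peak was above 86.8% of the list in DP cells, 13.7% in pre-B and 4.21% in DN cells. The 1 Rad21 site shared by DN and DP cells and not called in pre-B cells in the 5 windows also lay here, 83.0 kb upstream, above 1.70% of DN peaks and 23.2% of DP peaks.

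Ikzf3 lies on the minus strand at chr11:98326216-98407345, a gene body of 81.1 kb with 4 annotated starts, and 11 other protein-coding genes share its window. Like Ikzf1, it had many Rad21 peaks in DP cells, with 27 in the window and 10 in the gene body, against 2 in the gene body in pre-B cells and 0 in DN cells. As many in the gene body or more were found at 226 protein-coding genes. With the Rad21 lists limited to equal length, however, the window held 9 peaks in DP, 7 in DN and 5 in pre-B cells, and the gene body held 2, both in DP cells. Unlike Ikzf1, its flanks also held many sites in B-lineage cells, with 17 Rad21 peaks in pre-B cells in the window, a number reached by 623 of all gene windows, and 30 CTCF peaks in IL7 pro-B cells, reached by 665. Windows differ in length, and in peaks per Mb of window the values of Ikzf3 were reached by 1497 and 2258 genes. With the CTCF lists limited to equal length, the window held 17 in IL7 pro-B and 15 in pre-B cells.

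The Ikzf3 promoter site (chr11:98406666-98407605) was called in 4 libraries. It stood above 87.1% of the Rad21 list in DP cells but above 4.11% of it in pre-B cells, and its CTCF peaks lay above 30.4% of the pre-B list and 9.03% of the IL7 list. In intron 1, 5.53 kb from the start, a site was called in the same 4 libraries, with values of 37.6% and 65.5% for CTCF in pre-B and IL7 pro-B cells and of 42.6% and 76.1% for Rad21 in pre-B and DP cells. No other site in the gene body had Rad21 in pre-B cells. The other 8 DP Rad21 peaks of the gene body were called in neither pre-B nor DN cells, and they lay above 8.67% to 67.7% of the DP list. The highest of these was in intron 3 at 50.8 kb. In IL7 pro-B cells, CTCF peaks without Rad21 lay in intron 1 at 7.04 kb, above 57.2% of the list, in an exon at 30.4 kb, above 13.6%, and in intron 3 at 52.8 kb, above 14.4%.

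The flanks of Ikzf3 held 6 sites called in all 5 libraries, 3 on either side of the gene. The highest in the DP list was downstream, near Grb7, at chr11:98318381-98321581. It was 1 broad peak in DP cells, above 99% of the list. The other Rad21 lists split it, with the stronger part above 81.6% in pre-B and 52.7% in DN cells, while CTCF stood above 87.7% in pre-B and 98.8% in IL7 pro-B cells. Farther downstream, a site at the start of 1810046J19Rik had the highest CTCF in pre-B cells, above 99.7%, and in IL7 pro-B cells, above 99.3%, with Rad21 above 94.2% of the pre-B, 86.1% of the DP and 18.2% of the DN list. The site that ranked highest for DN cells lay in an exon near the start of Pgap3, above 74.1% of the DN and 90.8% of the DP list. Upstream, the site in an exon of Gsdma3 had the highest Rad21 in pre-B cells, above 95.3%, and stood above 88.8% in DP and 12.2% in DN cells. The order of the sites therefore differed between the Rad21 lists, with a different site first in each of the 3 cell types.

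Ikzf4 lies on the minus strand at chr10:128067899-128083047, a gene body of 15.1 kb with 8 annotated starts and 10 other protein-coding genes in the window. No promoter of Ikzf4 had a peak in any of the 5 lists. The gene body held 1 peak, for Rad21 in DP cells in an exon, above 15.4% of the list. Its flanks were crowded, with 17 CTCF peaks in pre-B cells and 15 Rad21 peaks in DP cells, of which 9 and 10 lay at promoters of neighbouring genes. With the Rad21 lists limited to equal length, 4 DP peaks were left in the window, all in the flanks. One site was called in all 5 libraries, 17.8 kb beyond the end of the gene and nearest to the start of Gm9182. It was the highest of the window for CTCF in pre-B cells, above 94.8%, and for Rad21 in pre-B cells, above 88.7%, and in DN cells, above 64.0%. The highest CTCF peak in IL7 pro-B cells, above 98.2%, lay near the start of Erbb3, and the highest Rad21 peak in DP cells, above 89.1%, lay nearest to Esyt1.

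Ikzf5 lies on the minus strand at chr7:138532166-138554035, a gene body of 21.9 kb with 5 annotated starts and 7 other protein-coding genes in the window, one of which has a model that spans the whole of it. It had the fewest sites of the members and none in all 5 libraries. No Rad21 peak was called in its window in DN cells, a count of 0 that allows up to 3 peaks. Its promoter, shared with the start of Acadsb on the other strand, had a CTCF peak in pre-B cells, above 4.69% of the list, and a Rad21 peak in DP cells, above 51.1%. The strongest site of the window lay at the start of Pstk, 17.6 kb beyond the end of the gene, with CTCF above 96.2% of the pre-B and 94.2% of the IL7 list. Rad21 there was above 37.2% of the pre-B list and 4.14% of the DP list, and the highest DP peak, above 59.1%, was at the start of 1700007K09Rik.

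**Figure D2:**
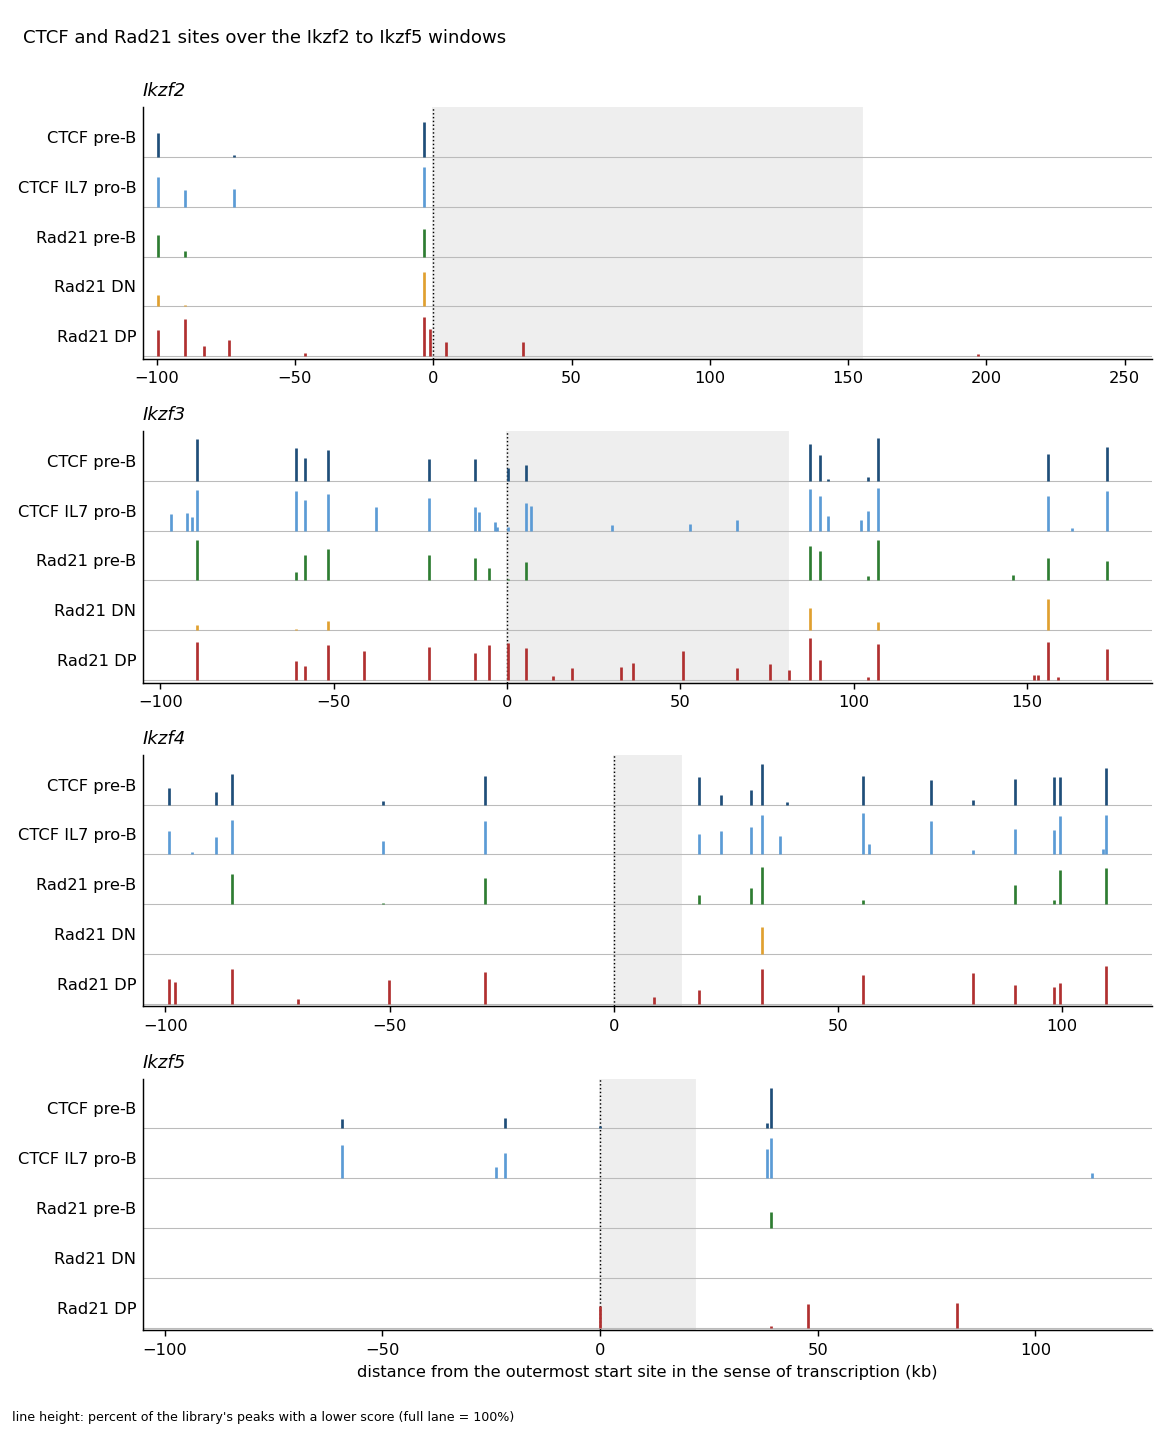
CTCF and Rad21 sites over the windows of Ikzf2, Ikzf3, Ikzf4 and Ikzf5, drawn as for Ikzf1, with distance in kb from the outermost start along the gene (gene body shaded) and line height as the percent of the library's peaks with a lower score. The Ikzf2 and Ikzf4 gene bodies hold 2 and 1 peaks, all for Rad21 in DP cells, whereas the Ikzf3 gene body holds 10 DP peaks.

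Across the members, promoters were called at 3 of 5 genes for CTCF in pre-B cells (Ikzf1, Ikzf3 and Ikzf5; 27.1% of all protein-coding genes), at 2 for CTCF in IL7 pro-B cells (38.8%), at 2 for Rad21 in pre-B cells (20.9%), at 0 for Rad21 in DN cells (4.56%) and at 4 for Rad21 in DP cells (Ikzf1, Ikzf2, Ikzf3 and Ikzf5; 33.0%). With 5 genes, these counts cannot be set apart from the genome-wide shares.

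The genes of proteins that Ikaros family members bind were looked at in the same way. The list held 16 genes for subunits of the NuRD, CtBP, Sin3 and SWI/SNF complexes. Promoter peaks were called at 6 of them for CTCF in pre-B cells (27.1% of all protein-coding genes) and at 8 in IL7 pro-B cells (38.8%). For Rad21 they were called at 2 in pre-B (20.9%), 0 in DN (4.56%) and 8 in DP cells (33.0%). Chd4, the NuRD remodelling enzyme, and the deacetylase genes Hdac1 and Hdac2 were among the 8 with Rad21 in DP cells. Gatad2b and Ctbp1 were the 2 with Rad21 in pre-B cells, so that no promoter was called in both, but with promoters taken as 2.5 kb the counts were 5 in pre-B (27.3% of all protein-coding genes), 1 in DN (7.55%) and 9 in DP cells (37.9%), and 3 were called in both pre-B and DP cells (Chd4, Ctbp2 and Hdac1). For CTCF they were 7 in pre-B (35.6%) and 10 in IL7 pro-B cells (48.8%). None of the 16 was called in all 5 lists, and Mta1, Mta3, Rbbp7 and Smarca4, which encodes the SWI/SNF enzyme BRG1, were called in none.

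The lineage sharing of cohesin was then counted on the Rad21 peaks of the 3 cell types merged into sites. The 5 windows held 89 such sites, of which 14 were called in all 3 cell types (15.7%, against 18.7% of all 46478 sites of the genome). A further 19 were called in pre-B and DP cells (21.3%, against 25.1%) and 1 in DN and DP cells (1.12%, against 0.940%). Pre-B cells alone had 5 sites (5.62%, 95% interval 1.85 to 12.6, against 20.6% of the genome), and none of the 5 touched a member's gene body. DP cells alone had 50 (56.2%, 45.3 to 66.7, against 33.6%). DN cells alone and pre-B with DN cells had 0 (interval 0 to 4.06 for each), against genome-wide shares of 0.310% and 0.831%. The DN list is the shortest, and the shares moved when the 3 lists were limited to its length, which left 28 sites. Sites in all 3 cell types were then 9 (32.1%, against 33.2% of the genome). Pre-B cells alone had 2 (7.14%, 0.877 to 23.5, against 14.8%), so that the value for the genome lies inside the interval. DN cells alone had 3 (10.7%, against 13.0%), as did DN with DP cells (10.7%, against 7.90%). Pre-B with DP cells had 2 (7.14%, against 6.50%), and pre-B with DN cells had 0, against 8.94% of the genome. The intervals are exact Clopper-Pearson intervals and cover counting error only, and sites within a window are not independent of one another.

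Ikzf1 held 22 of the 50. DP-only sites, meaning sites called in DP cells and in neither pre-B nor DN cells, made up 75.9% of the 29 Rad21 sites in its window (interval 56.5 to 89.7). The counts were 6 of 10 at Ikzf2, 12 of 28 at Ikzf3, 7 of 18 at Ikzf4 and 3 of 4 at Ikzf5. Without Ikzf1, DP-only sites were 28 of 60 in the other windows (46.7%, 33.7 to 60.0). With the 3 lists limited to an equal number of top peaks the share over all windows was 32.1% (9 of 28, 15.9 to 52.4) against 15.6% of the genome. It was then 4 of 8 at Ikzf1, 0 of 4 at Ikzf2, 4 of 11 at Ikzf3 and 1 of 5 at Ikzf4, and Ikzf5 had no Rad21 site, so that the share depends on list length.

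**Figure D3:**
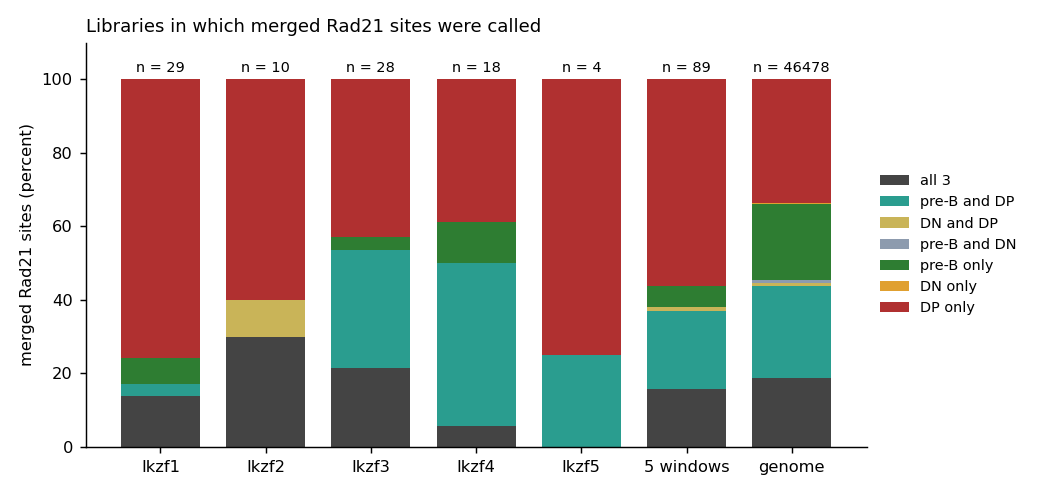
Merged Rad21 sites by the libraries in which they were called, in percent of the sites of each Ikaros family window, of the 5 windows together and of the genome, with the number of sites above each bar. DP-only sites make up 75.9% of the bar for Ikzf1 and 33.6% of that for the genome, and no member has a DN-only site in the lists as deposited (with lists of equal length Ikzf2 has 2 and Ikzf3 has 1).

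The gene bodies of the members held 28 of the 50 DP-only sites, and 41 of the 50 touched the gene body of a member or a neighbour (82.0%, against 62.7% of DP-only sites of the genome, the windows being drawn around genes). Ikzf1 had 16, a number reached by 14 genes including itself, and Ikzf3 had 8, reached by 145, while 75% of protein-coding genes had none. With the 3 lists limited to equal length, Ikzf1 had 4, reached by 34 genes, Ikzf3 had 2, reached by 243, and the other members had 0. In the Ikzf1 gene body outside the promoters, 13 of 14 DP peaks were called in neither pre-B nor DN cells, as were 8 of 9 at Ikzf3, against 39.8% of DP peaks at such positions in all protein-coding genes. At promoters the genome-wide share was higher, 56.3%, and 3 of 4 Ikzf1 promoter peaks and 0 of 1 at Ikzf3 were of this kind.

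**Figure D4:**
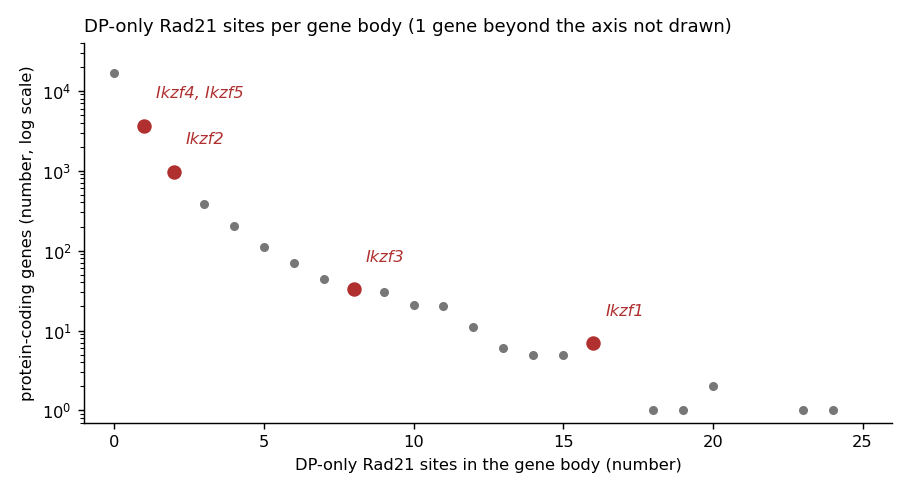
Number of protein-coding genes (log scale) by the number of DP-only Rad21 sites in the gene body, with the points that hold Ikaros family genes in red. In the lists as deposited, Ikzf1 is at 16 sites and Ikzf3 at 8, whereas Ikzf2 is at 2 and Ikzf4 and Ikzf5 are at 1.

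The sharing was also read by score, with the DP list divided into 4 bands that each hold about 25% of its peaks. In the genome, 42.5% of DP peaks were called in neither pre-B nor DN cells, with 69.0% in the lowest band, then 55.0%, 36.3% and, in the top band, 9.50%. In the Ikaros family windows the counts were 50 of 84 over the whole list, and 17 of 20 in the lowest band, 17 of 24, 14 of 20 and, in the top band, 2 of 20. The windows thus stood above the genome in the lower 3 bands, and at 10% against 9.50% in the top one. Without Ikzf1 the counts were 10 of 13, 8 of 15 (53.3%, below the genome), 10 of 15 and 0 of 14. Both of the top peaks were at Ikzf1, the promoter site at 5.34 kb and the intron 3 site at 54.2 kb, and the Ikzf1 counts by band were 7 of 7, 9 of 9, 4 of 5 and 2 of 6. DP-only sites of the windows were about as strong as those elsewhere, with a median of 32.2% of the list lower against 31.5%.

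CTCF from the B-lineage lists lay at shared sites but at few DP-only ones. Of the 89 sites, 44 had a CTCF peak in pre-B or IL7 pro-B cells (49.4%, against 72.9% of the genome). All 14 sites with Rad21 in the 3 cell types had one (99.9% in the genome), as did 18 of 19 called in pre-B and DP cells (94.7%, against 92.9%). Of the 50 DP-only sites, 9 had one (18.0%, 8.58 to 31.4, against 34.3% of the genome), and at Ikzf1 4 of 22 did. The remaining 41 had none, but whether CTCF is bound there in DP cells was not tested.

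The sequence under the DP Rad21 peaks followed the same division. A match to the CTCF consensus with at most 2 mismatches was found in 11 of 14 peaks at sites called in all 3 cell types (78.6%, against 60.9% of the genome) and in 9 of 19 at pre-B and DP sites (47.4%, against 46.9%). At DP-only sites it was found in 8 of 50 peaks (16.0%, against 17.1%), with 8.00% of sequence 2000 bp away holding one. Without the sites that had B-lineage CTCF it was 6 of 41 (14.6%, against 9.66%). At Ikzf1, all 4 shared peaks and 1 of 22 DP-only peaks held a match.

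**Figure D5:**
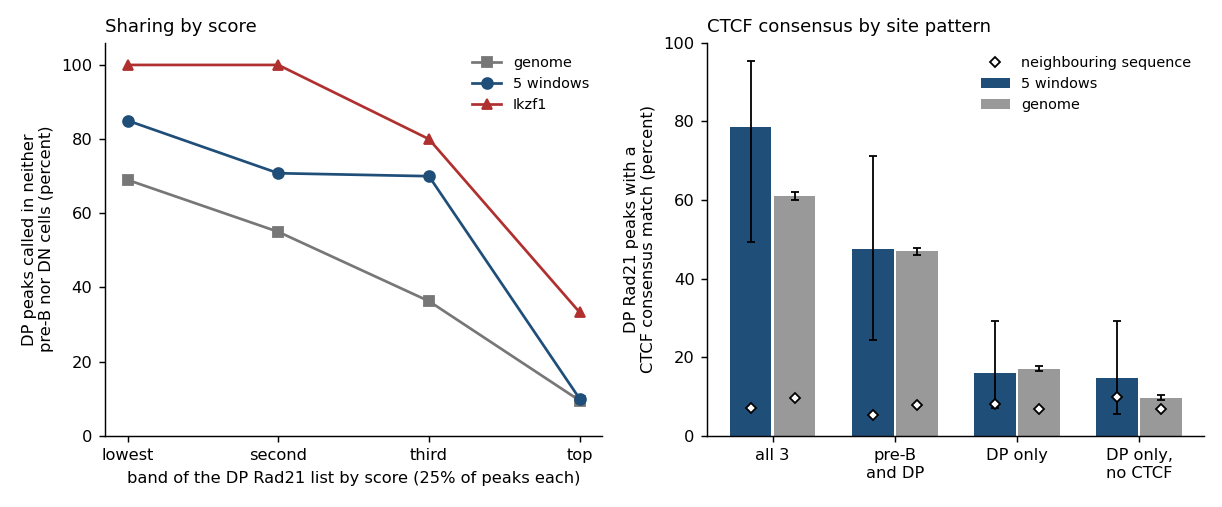
Left, percent of DP Rad21 peaks called in neither pre-B nor DN cells by score band of the DP list (25% of its peaks each), for the genome, the 5 windows and Ikzf1; right, percent of DP Rad21 peaks with a CTCF consensus match by the cell types in which the site was called, with 95% exact intervals and open diamonds for sequence 2000 bp away. The line for the windows meets that of the genome in the top band (10% and 9.50%), and matches fall from 78.6% at sites in all 3 cell types to 16.0% at DP-only sites.

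In pre-B cells, where both proteins were profiled, 34 of 50 CTCF peaks in the windows overlapped Rad21 (68.0%, 53.3 to 80.5, against 63.5% of the genome), and 34 of 39 Rad21 peaks overlapped CTCF (87.2%, against 88.1%). By member, the counts of CTCF peaks with Rad21 ran from 14 of 15 at Ikzf3 (68.1 to 99.8) to 1 of 5 at Ikzf5 (0.505 to 71.6), with intervals that overlap. CTCF peaks with Rad21 had a median of 65.8% of the list lower, and those without had 18.2% (66.8% and 23.3% in the genome). A consensus match was found in 25 of the 50 CTCF peaks (50%, 35.5 to 64.5, against 48.3%), from 10 of 15 at Ikzf3 and 6 of 10 at Ikzf1 to 1 of 5 at Ikzf5.

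Most CTCF sites of pre-B cells were also called in the longer IL7 list. With the CTCF lists limited to equal length, 42 of the 50 pre-B CTCF peaks were called in IL7 pro-B cells (84.0%, 70.9 to 92.8). In the lists as deposited, 47 of the 50 were (94.0%, against 96.0% of the genome). The 3 that were not were weak, above 10.1% of the list at most. One of them was the Ikzf5 promoter peak. The longer IL7 list added 27 peaks without a pre-B peak, 14 of them at Ikzf3, and these had a median of 24.0% of the list lower, against 71.6% for the 49 shared ones (64.5% of the IL7 peaks, against 58.6% of the genome). Between the lineages, 34 of 39 pre-B Rad21 peaks were called in DP cells (87.2%, against 67.3% of the genome), as were all 16 DN peaks (94.5% of the genome), of which 15 were also called in pre-B cells (93.9% of the genome), while 33 of 84 DP peaks were called in pre-B cells (39.3%, against 56.3%).

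Several 12-base words recurred among the best consensus matches in the windows. Only the most frequent word was followed up, after it had been seen. It is shown here at 4 sites, in capitals within 30 bases of mm9 on the strand named.
downstream of Ikzf1, chr11:11691416-11691445, plus strand: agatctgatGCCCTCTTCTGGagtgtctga
downstream of Ikzf3, chr11:98305028-98305057, minus strand: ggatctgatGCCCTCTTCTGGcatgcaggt
upstream of Ikzf3, chr11:98410849-98410878, minus strand: tgagccagtGCCCTCTTCTGGaaaccatgg
upstream of Ikzf4, chr10:128177094-128177123, plus strand: ggatctgatGCCCTCTTCTGGcatgtatca
The word was found on either strand in 18 of the 119 sites. All 18 had a CTCF peak in pre-B or IL7 pro-B cells (62.2% of the 119 sites did). Of the 18, 8 had Rad21 in any list (44.4%). The share of the 119 was 74.8%, but sites without CTCF are among the 119 only because they had Rad21. These 2 shares can therefore not be compared. The word was itself picked from matches to the CTCF consensus, so its presence at CTCF peaks is a description only. It was in 17 of 76 CTCF peaks of IL7 pro-B cells (22.4%, against 15.8% of the whole list and 1.93% of sequence 2000 bp away), in 7 of 50 of pre-B cells (14.0%, against 14.9%) and in 6 of 39 Rad21 peaks of pre-B cells (15.4%, against 9.67%). Of the DN and DP Rad21 peaks in the windows, 1 of 16 (6.25%, against 4.30%) and 3 of 84 (3.57%, against 5.68%) held it. The bases around it were also alike at several of these sites, and whether they belong to a repeat family was not tested.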

How the data were processed

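CTCF and Rad21 ChIP-seq of 5 libraries, 1 per condition, were used. According to the methods, duplicates and adapters were taken out by the authors, who mapped the reads to mm9 with Bowtie (the submitters' processing notes give version 0.12.9 and the methods a later one), kept those with up to 3 best places, and called peaks against input with MACS 1.4.2. The deposited files give each peak's position and its score, used here only for rank within a list. Depth is unknown, since the files hold no read counts.

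Genes, starts, exons and introns come from GENCODE vM1 on NCBIM37, whose chromosomes are those of mm9, and introns are numbered on the longest coding transcript. Peaks were merged at 1 bp of overlap. The CTCF consensus was searched on both strands of each peak, with sequence 2000 bp away as background. The members and lists were chosen with earlier results of these data known. The sites named are those at member promoters and in member gene bodies, the highest peak of each list in each window, and, chosen after their values were seen, other sites called in all libraries, the pre-B-only sites of Ikzf1, and 2 Rad21 sites upstream of Ikzf2. Partner genes were to be named where called in all lists or in none, and those named beyond that were chosen after their values were seen.

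Alternatives were peaks scored at least 100, lists of equal length, flanks of 50 kb, peak midpoints, 50% overlap, 1 or 3 mismatches, promoters within 2.5 kb, and the outermost start alone. The steps were tested on simulated data, where 1500 of 1500 planted shared peaks and 2000 of 2000 planted consensus sites were recovered. Tools were samtools 1.23.1 and Python 3.11.15 with pysam 0.24.0, scipy 1.17.1, numpy 2.4.6 and matplotlib 3.10.9.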

Additional observations from a re-analysis of the deposited data

How the results depend on the processing

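No paired analysis was possible because each condition has 1 library. Of 71 alternative values of 22 results, 50 stayed within 1.5 times the count or inside the interval of the value reported. Flanks of 50 kb left 30 and 48 CTCF peaks in pre-B and IL7 pro-B cells and 22 and 9 Rad21 peaks in pre-B and DN cells, and lowered the pre-B-only share of Rad21 sites to 1.67%. Lists of equal length left 48 IL7 CTCF peaks, and 13 pre-B and 23 DP Rad21 peaks. They also gave 86.1% of pre-B CTCF peaks with Rad21, 32.1% of Rad21 sites in all 3 cell types and 32.1% in DP alone, with 50% DP-only at Ikzf1. Scores of at least 100 left 55 DP peaks. The consensus share was 20% at 1 mismatch and 90% at 3, where 60% of neighbouring sequence matched too. With the outermost start alone, member promoters held 2, 2 and 1 peaks for CTCF in pre-B, CTCF in IL7 pro-B and Rad21 in pre-B cells. Within 2.5 kb of a start they held 11 DP peaks, and 5 and 1 partner promoters had Rad21 in pre-B and DN cells. In an alternative added after the data had been examined, the DP list was limited to the length of the pre-B list, and DP-only sites were 48.0% over the windows (26.5% of the genome) and 70.8% at Ikzf1. Over the windows together, the DP-only share was above that of the genome with lists of equal length, with this limited DP list and with scores of at least 100 (51.7% against 28.9%), the settings in which both were computed, but 1 library per condition and unknown depth leave differences between cell types and between libraries impossible to tell apart.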

Other observations

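The 14 genes with at least 16 DP-only Rad21 sites in the gene body were looked up after the count of Ikzf1 was known, in the lists as deposited. They were Gm20388 with 108 sites, Eif4e3 with 24, Arid1b with 23, Clec16a and Runx1 with 20 each, Tbc1d22a with 19, Mad1l1 with 18, and Ets1, Fstl4, Ikzf1, Ncald, Sept9, Tiam1 and Znrf1 with 16 each. Per 100 kb of gene body, Ikzf1, the shortest of the 14, had 18.2 DP-only sites, the most among them. The 14 were picked by count, so shorter genes with fewer sites but a higher density are left out. Density in the gene body was not ranked over all genes. Znrf1, a ubiquitin ligase gene of nearly the same length, came next with 17.8, and Ets1 had 13.2. The lowest was 2.44, at Gm20388, a model of 4435 kb.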
